A study of Mus musculus with 18 samples.

Results

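Klf2, Klf3, Klf4, Klf5, Klf6, Klf7, Klf9, Klf10, Klf11 and Klf13 encode Kruppel-like transcription factors, and their transcript levels were followed in brown adipocytes in which lipolysis was switched on or blocked. The 10 genes were taken by symbol from the 20295 genes of the count table. All 10 passed the filter on low counts, which kept 12156 genes, and 6 of them (Klf2, Klf4, Klf6, Klf9, Klf11 and Klf13) changed at least 2-fold (a log2 fold change of 1 or −1 or beyond) with an adjusted p no larger than 0.05 in 1 or more of 11 comparisons. A gene that passed both thresholds is termed called below, and a gene that passed the adjusted p is said to have risen or fallen. The share of all genes called in at least 1 of the 11 comparisons, which share groups, was not counted. The 6 members are therefore not set against a background here, and shares of all genes are given per comparison below.

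Kruppel-like factors share 3 zinc fingers at the C-terminus that read GC-rich DNA and CACCC boxes, and differ in the N-terminal part that recruits cofactors. Klf3 binds the corepressor CtBP, the group of Klf2, Klf4, Klf5, Klf6 and Klf7 mostly holds activators, and Klf9, Klf10, Klf11 and Klf13 bind the corepressor Sin3A. In adipocytes the family is known for opposing roles, since Klf5, Klf6 and Klf9 favour adipogenesis while Klf2, Klf3 and Klf7 hold it back.

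RNA-seq was done on BAT-LgT cells, a wild-type mouse brown preadipocyte line made immortal with SV40 large T antigen and taken through adipogenic differentiation with dexamethasone, 3-isobutyl-1-methylxanthine, T3 and insulin, all withdrawn before treatment. On day 7 of differentiation cells were stimulated for 3 h with 100 nM isoproterenol (ISO), which activates β-adrenergic receptors, with SR-3420 or with DMSO as Vehicle. Inhibitors of the lipases ATGL and HSL, given for 1 h before, made up the second arm, whose groups are named Lipase Inh. + Vehicle, + ISO and + SR-3420. SR-3420 binds ABHD5 and releases this ATGL co-activator from perilipin, so that triglyceride is hydrolysed without a β-adrenergic signal. The labels give it at 10 µM, and the study's text states another dose, which was not settled here. Each of the 6 groups held 3 samples of this single cell line, described by the study as independent experiments.

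The 18 libraries held 10310447 to 21205032 counts, except Lipase Inh. + SR-3420 replicate 2 with 4263755 counts, of which 18.3% fell on Lars2 against 0.0397% to 0.121% in the other 17. Changes tested with this library are also given without it. All 12 mature brown adipocyte markers listed were kept by the filter. Their summed level was 31965 to 35212 CPM in Lipase Inh. + ISO, where Klf6, Klf9, Klf11 and Klf13 were lowest, against 24475 to 25839 in ISO, 17301 to 17684 in SR-3420 and 18441 to 21975 in the other groups, where CPM is the count scaled to the library size in units of 1e6 counts. This sum is weighted to Lpl, which alone ranged from 7679 to 24868 CPM over the 18 samples. Each other brown adipocyte marker was at most 4451 CPM, so the sum does not describe the markers one by one. Passing the filter did not mean a high level, since Cox7a1 was at 0.367 to 2.47 CPM. Ucp1 ranged from 1.39 to 789 CPM and Elovl3 from 3.13 to 66.1 CPM. The 6 preadipocyte and fibroblast markers summed to 136 to 139 CPM in the SR-3420 samples and to 89.6 to 132 CPM in the others, and the part of either marker list in the results was not tested. Leukocyte markers summed to at most 6.30 CPM with Ptprc at 0 in all samples, endothelial markers to at most 1.17 CPM and muscle markers to at most 2.66 CPM. In bulk RNA, fewer expressing cells and less RNA per cell cannot be told apart.

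The promoters of the 6 called genes are shown first, because GC boxes and CACCC boxes are the letters that the family itself reads and the cAMP response element (CRE) is the letters read by CREB, the factor downstream of β-adrenergic cAMP. The 120 bases before the annotated start are given 5′ to 3′ on the gene's strand, from RefSeq on GRCm38.p6. Capitals mark GC boxes (GGGCGG or its complement CCGCCC) and CRE cores (TGACG), of which the Klf2 stretch held none.
Klf4, minus strand, chr4:55532476-55532595: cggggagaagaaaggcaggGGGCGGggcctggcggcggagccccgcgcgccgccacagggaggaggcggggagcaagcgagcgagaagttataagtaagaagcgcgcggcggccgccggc
Klf6, plus strand, chr13:5861369-5861488: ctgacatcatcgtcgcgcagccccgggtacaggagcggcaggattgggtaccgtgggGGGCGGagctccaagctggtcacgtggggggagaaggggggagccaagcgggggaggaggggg
Klf2, plus strand, chr8:72318942-72319061: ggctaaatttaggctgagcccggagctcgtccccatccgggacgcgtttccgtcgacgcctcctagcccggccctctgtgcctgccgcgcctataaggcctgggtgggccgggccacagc
Klf9, plus strand, chr19:23141106-23141225: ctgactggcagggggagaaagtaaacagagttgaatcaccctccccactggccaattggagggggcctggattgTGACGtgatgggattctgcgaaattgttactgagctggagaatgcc
Klf11, plus strand, chr12:24651251-24651370: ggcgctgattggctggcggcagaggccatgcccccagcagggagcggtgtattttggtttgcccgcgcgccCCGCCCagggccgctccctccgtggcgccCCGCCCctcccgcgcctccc
Klf13, minus strand, chr7:63938916-63939035: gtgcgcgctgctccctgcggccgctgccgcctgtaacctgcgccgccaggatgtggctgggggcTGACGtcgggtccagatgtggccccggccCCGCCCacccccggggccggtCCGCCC

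Promoter windows from 250 bases before to 50 bases after the start were available for 8 of the 10 genes, Klf5 and Klf10 being the exceptions. Searched on both strands, a GC box stood in 7 of 8 windows, against 35.7% of the 32851 windows of all RefSeq genes, and Klf9 was the window without a match. Klf3 held 6 GC boxes, Klf4 and Klf11 held 4 each, and Klf13 held 3. The CACCC box (CCACCC) was found in Klf2, Klf3, Klf7 and Klf13, that is in 4 of 8 windows against 31.5% of all. The full CRE (TGACGTCA), which contains the core on each strand, was found in 0 of 8 windows and in 1.79% of all windows. The CRE core alone was found in 5 of 8 windows against 20.8% of all, and in Klf9 and Klf13 it began 46 and 56 bases before the start. The C/EBP-ATF element (TGATGCAA) and the TATA box (TATAAA) each had 0 of 8 matches, against 0.895% and 13.6% of all windows. The median GC content was 70.7% in the 8 windows and 52.7% in all windows, and the share of matches was not adjusted for it.

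**Figure D1:**
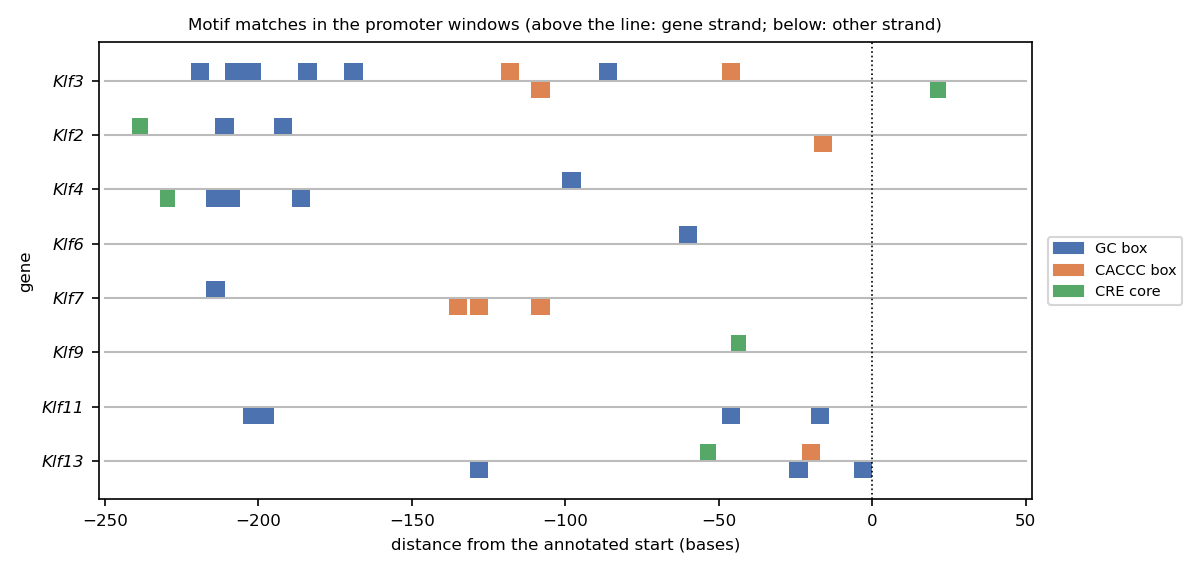
Matches of 3 motifs in the promoter windows of 8 genes, by distance in bases from the annotated start (dotted line, base 0), with matches on the gene's own strand above each line and matches on the other strand below. GC boxes occur in 7 of the 8 windows, and the CRE core of Klf9 and Klf13 lies within 56 bases of the start.

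In untreated brown adipocytes the genes spanned a wide range of levels per kilobase of counted length (RPKM). Klf9, which responds to glucocorticoid and thyroid hormone, was the most abundant in Vehicle at 82.1 ± 3.03 RPKM (SD, n = 3), followed by Klf3 at 28.6 RPKM, Klf6 at 23.5, Klf13 at 22.8, Klf10 at 21.0 and Klf11 at 12.8 RPKM. The lowest levels were those of Klf7 at 4.27, Klf2 at 3.85, Klf4 at 3.66 and Klf5 at 2.00 RPKM. The sample ranges of Klf3 and Klf6, of Klf6 and Klf13, of Klf7 and Klf2, and of Klf2 and Klf4 overlapped, so these neighbours in the order did not differ beyond their spread. Klf9 stayed at the top in all 6 groups, but the order below it moved. Klf4 was ninth in Vehicle and sixth in ISO and in SR-3420, where its mean was 14.98 and 17.3 RPKM, and Klf11 ranked behind Klf9 and Klf6 in SR-3420 at 41.9 RPKM and was seventh in Lipase Inh. + ISO at 4.71 RPKM. In Lipase Inh. + ISO the gap between Klf9 at 42.3 RPKM and the next gene, Klf10 at 34.01 RPKM, was smaller than the gap below Klf9 in the other groups.

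**Figure D2:**
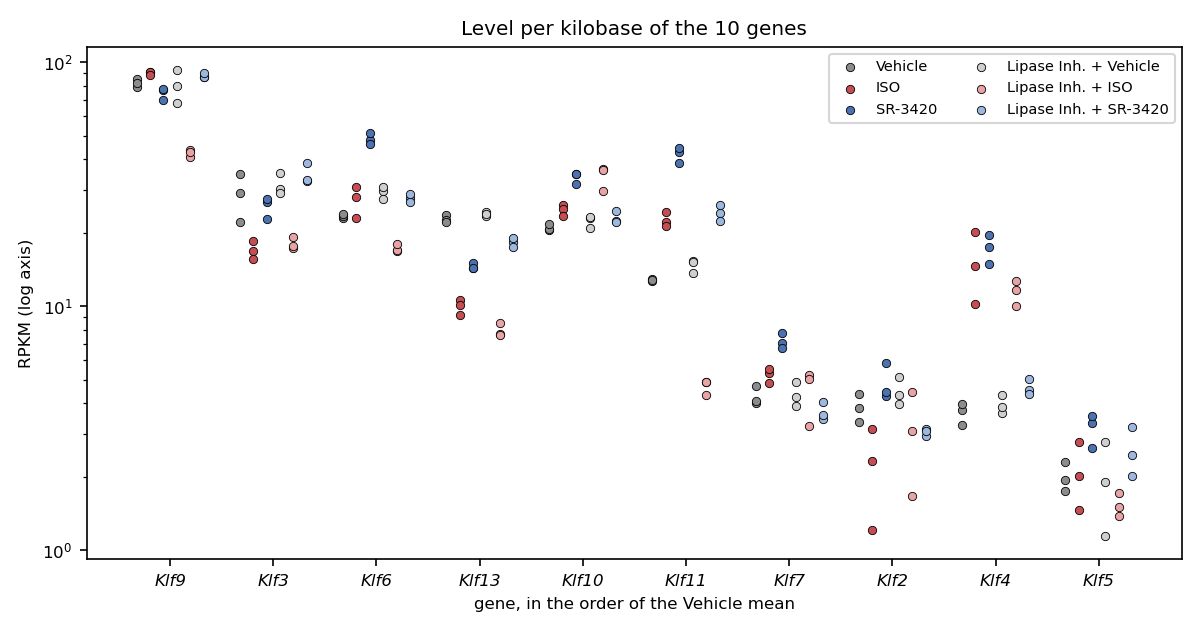
Level per kilobase (RPKM, log axis) of the 10 genes in each of the 18 samples, ordered by the Vehicle mean and coloured by group. Klf9 is at the top in every group, while the points of Klf4 and Klf11 move across the levels of their neighbours between groups.

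Under ISO, Klf4 rose and Klf13 fell, each past a 2-fold change, and these were the members called in ISO against Vehicle. This is 1 member higher and 1 lower, against 5.03% of all genes tested called higher and 4.07% lower. By adjusted p alone 4 members rose and 3 fell, against 26.8% and 25% of all genes. Under SR-3420, Klf4, Klf6 and Klf11 were called higher and no member lower, against 3.97% and 2.37% of all genes. By adjusted p alone 6 members rose and 1 fell, against 26% and 25.4% of all genes, and the median log2 fold change of the 10 was 0.68 where that of all genes was −0.02. The comparisons of ISO and of SR-3420 share the Vehicle samples. With inhibitors present, ISO left Klf4 called higher and Klf11 and Klf13 called lower (5.43% and 7.63% of all genes), while 0 members were called with SR-3420 (0.214% of all genes higher and 0.0823% lower). For SR-3420 with inhibitors an unadjusted p under 0.05 was reached by Klf11 and Klf13, which also passed the adjusted p, and DESeq2 likewise called 0 members, as did edgeR without the small library. The inhibitors by themselves changed 0 members by edgeR's adjusted p (0.00823% of all genes called higher and 0.0411% lower), though Klf6 and Klf11 had unadjusted p-values of 0.000629 and 0.0166. Klf6 passed the adjusted p without ISO replicate 2 (0.0278) or ISO replicate 3 (0.0134). DESeq2 put it at an adjusted p of 0.009 and called 0 members past both thresholds.

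**Figure D3:**
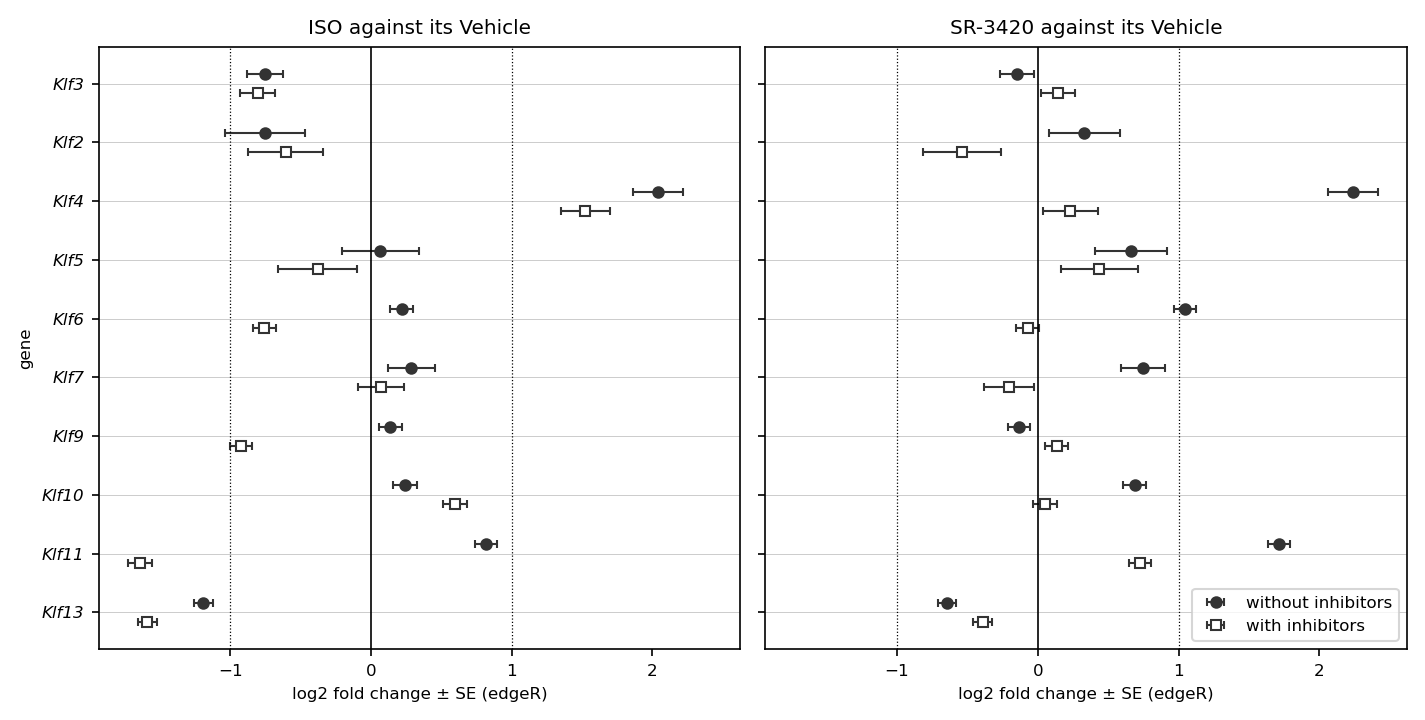
Log2 fold change (± SE, edgeR) of the 10 genes after ISO (left) and SR-3420 (right), without lipase inhibitors (filled circles, against Vehicle) and with them (open squares, against Lipase Inh. + Vehicle), with dotted lines at −1 and 1. Klf11 lies at 0.82 for ISO without inhibitors and at −1.64 with them, and Klf4 lies at 2.24 for SR-3420 without inhibitors and at 0.23 with them.

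Klf3, the CtBP-binding repressor (mm9 chr5:65194762-65221368), fell with ISO whether or not the lipases were inhibited. Its CPM was 51.1 to 80.2 in Vehicle, 36.0 to 42.8 in ISO, 67.1 to 81.6 in Lipase Inh. + Vehicle and 39.9 to 44.6 in Lipase Inh. + ISO, so the ISO samples lay below their controls in both arms. The log2 fold change was −0.75 ± 0.13 (SE, adjusted p = 3.64e-05) without and −0.80 ± 0.12 (adjusted p = 9.75e-06) with inhibitors, and the difference between these was −0.05 ± 0.18 (adjusted p = 0.851). SR-3420 gave 52.9 to 63.4 CPM, within the range of Vehicle, with a log2 fold change of −0.15 ± 0.12 (adjusted p = 0.321, and −0.31 with an adjusted p of 0.0487 when libraries were scaled by total counts, or of 0.0256 without Vehicle replicate 1).

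Klf4, known from pluripotency and epithelial differentiation and listed by the study among its markers of the unfolded protein response, rose most of the 10 genes (mm9 chr4:55540009-55545347). Its CPM was 11.4, 9.89 and 12.1 in Vehicle, 44.4, 61.2 and 31.2 in ISO, and 53.4, 59.6 and 45.3 in SR-3420. In the inhibitor arm it was 11.2, 11.8 and 13.1 in Lipase Inh. + Vehicle, 35.4, 38.7 and 30.5 in Lipase Inh. + ISO, and 15.3, 13.9 and 13.3 in Lipase Inh. + SR-3420. All ISO samples, with or without inhibitors, and all SR-3420 samples without inhibitors were at 30.5 CPM or more. Both controls lay at 9.89 to 13.1 CPM, and SR-3420 with inhibitors lay just above them at 13.3 to 15.3 CPM. ISO raised Klf4 by 4.11-fold (log2 2.04 ± 0.18, adjusted p = 3.45e-09) and SR-3420 by 4.72-fold (log2 2.24 ± 0.18, adjusted p = 1.09e-09), and the difference between ISO and SR-3420 was −0.20 ± 0.16 (adjusted p = 0.361, and −0.47 with an adjusted p of 0.0194 without ISO replicate 2). With inhibitors the ISO response was 2.88-fold (log2 1.52 ± 0.18, adjusted p = 1.74e-07) and the SR-3420 response log2 0.23 ± 0.20 (adjusted p = 0.626, and 0.24 without the small library). The inhibitors therefore lowered the SR-3420 response by −2.01 ± 0.26 on the log2 scale (interaction, adjusted p = 8.09e-06, and −2.001 without the small library), while the ISO response differed by −0.52 ± 0.25 (adjusted p = 0.123). Leaving out 1 sample at a time moved this ISO difference between −0.72 and −0.25, and it passed without ISO replicate 3 (−0.72, adjusted p = 0.0106).

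Klf6, an early-response activator that favours adipogenesis (mm9 chr13:5860735-5869639), rose with SR-3420 and fell with ISO when the lipases were inhibited. Its CPM was 96.5, 99.2 and 101 in Vehicle, 118, 130 and 97.1 in ISO, and 202, 216 and 195 in SR-3420. With inhibitors it was 124, 116 and 130 in Lipase Inh. + Vehicle, 71.3, 71.6 and 75.9 in Lipase Inh. + ISO, and 118, 112 and 122 in Lipase Inh. + SR-3420. The SR-3420 samples were above all others and the Lipase Inh. + ISO samples below all others, while ISO alone overlapped Vehicle. SR-3420 raised it by 2.07-fold (log2 1.05 ± 0.08, adjusted p = 7.33e-10), whereas ISO alone gave a log2 fold change of 0.22 ± 0.08 (adjusted p = 0.0274), which turned to −0.09 (adjusted p = 0.449) with scaling by total counts. This small rise also missed the adjusted p without Vehicle replicate 1 (0.0751) or 2 (0.0544), without ISO replicate 1 (0.0841) or 2 (0.224, with a log2 fold change of 0.12), and with the groups compared alone (0.104). ISO with inhibitors lowered it by 1.69-fold (log2 −0.76 ± 0.08, adjusted p = 6.17e-08). The interactions were −0.98 ± 0.11 for ISO (adjusted p = 9.17e-07) and −1.12 ± 0.11 for SR-3420 (adjusted p = 3.35e-07, and −1.09 without the small library).

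Klf2, a regulator of endothelial quiescence that restrains adipogenesis, was low (20 to 154 counts per sample) and variable (mm9 chr8:74842961-74845553). Its CPM was 6.07, 7.96 and 6.97 in Vehicle, 4.23, 5.71 and 2.21 in ISO, and 7.79, 10.6 and 8.07 in SR-3420. With inhibitors it was 7.87, 9.31 and 7.22 in Lipase Inh. + Vehicle, 5.58, 8.06 and 3.04 in Lipase Inh. + ISO, and 5.68, 5.33 and 5.60 in Lipase Inh. + SR-3420. The ISO samples lay below Vehicle and below SR-3420 without overlap. Klf2 was 2.12-fold lower in ISO than in SR-3420 (log2 −1.08 ± 0.27, adjusted p = 0.00494), the only member called in that comparison, where 0.814% of all genes were lower and 1.23% higher. The size fell to −0.83 without ISO replicate 3 and to −0.94 without SR-3420 replicate 2, below the fold threshold. By adjusted p alone 7 members were lower and 1 higher in ISO than in SR-3420, against 1693 and 1916 of all 12156 genes. Among the 7, Klf11 (−0.89 ± 0.08, adjusted p = 1.27e-08) and Klf6 (−0.83 ± 0.08, adjusted p = 9.14e-08) had smaller adjusted p-values than Klf2 but were short of the fold threshold. Against Vehicle the ISO change of Klf2 was −0.75 ± 0.28 (adjusted p = 0.0305), which moved to −0.50 (adjusted p = 0.147) without ISO replicate 3 and also missed the adjusted p without Vehicle replicate 2 (0.105) or 3 (0.0512) or ISO replicate 1 (0.0685). With inhibitors the ISO change of Klf2 was −0.61 ± 0.27 (adjusted p = 0.0563), and the ISO interaction was 0.15 ± 0.39 (adjusted p = 0.813). Replicate 2 had the highest Klf2 level in every group other than Lipase Inh. + SR-3420.

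Klf5 and Klf7 were among the low genes and neither was called. Klf5, an activator of early adipogenesis induced by C/EBP factors, was covered by 13 to 117 counts per sample, with 1.98 to 6.13 CPM over all samples, and rose with SR-3420 against Vehicle (log2 0.66 ± 0.26, adjusted p = 0.0353). This rise missed the adjusted p with scaling by total counts (0.108), with DESeq2 (0.0505) and without Vehicle replicate 2 (0.112) or 3 (0.0743) or SR-3420 replicate 1 (0.0821) or 3 (0.124). Klf5 was also lower in Lipase Inh. + ISO than in Lipase Inh. + SR-3420 (−0.82 ± 0.29, adjusted p = 0.0187, and −0.90 without the small library), a difference that missed the adjusted p without Lipase Inh. + ISO replicate 2 (0.0518) or 3 (0.0544) or Lipase Inh. + SR-3420 replicate 3 (−0.59, adjusted p = 0.161). Klf7, an inhibitor of adipogenesis, went from 5.37 to 6.26 CPM in Vehicle to 8.96 to 10.4 CPM in SR-3420. It rose by 1.68-fold (log2 0.75 ± 0.16, adjusted p = 0.000458), and the inhibitors lowered this response by −0.95 ± 0.24 (adjusted p = 0.00469, and −0.94 without the small library). ISO left Klf7 at 6.46 to 7.35 CPM, with a log2 fold change of 0.29 ± 0.17 (adjusted p = 0.154). A transcript on the other strand, Gm13748, overlaps 12129 bases of Klf7 in GENCODE vM1, and the counting is not stated to use strand.

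Among the Sin3A-binding genes, Klf11, a TGF-β-inducible factor, moved in opposite directions under ISO with and without lipase inhibitors (mm9 chr12:25336236-25347647). Its CPM was 50.5, 51.7 and 50.8 in Vehicle, 88.5, 85.0 and 96.6 in ISO, and 170, 153 and 178 in SR-3420. With inhibitors it was 61.03, 54.5 and 60.6 in Lipase Inh. + Vehicle, 19.5, 17.3 and 19.5 in Lipase Inh. + ISO, and 96.1, 89.3 and 104 in Lipase Inh. + SR-3420. The ISO samples therefore lay above all Vehicle samples without inhibitors and below all of them with inhibitors, and the lowest and highest group means of the gene differed by 8.90-fold. ISO raised Klf11 by 1.76-fold (log2 0.82 ± 0.08, adjusted p = 1.37e-08) and with inhibitors lowered it by 3.12-fold (log2 −1.64 ± 0.09, adjusted p = 5.08e-13), an interaction of −2.46 ± 0.12 (adjusted p = 2.20e-12). SR-3420 raised it by 3.28-fold (log2 1.71 ± 0.08, adjusted p = 2.01e-13) and with inhibitors by 1.65-fold (log2 0.72 ± 0.08, adjusted p = 5.53e-06, and 0.77 without the small library). The SR-3420 interaction was −0.99 ± 0.11 (adjusted p = 9.87e-07, and −0.95 without the small library), so the rise with SR-3420 was smaller but remained past the adjusted p.

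Klf13, a Sin3A-binding factor known from T cells, fell in all 4 stimulated groups (mm9 chr7:71031237-71083801). Its CPM was 151, 144 and 142 in Vehicle, 68.1, 58.6 and 64.6 in ISO, and 91.4, 96.4 and 91.4 in SR-3420. With inhibitors it was 155, 150 and 153 in Lipase Inh. + Vehicle, 49.3, 54.4 and 48.9 in Lipase Inh. + ISO, and 117, 122 and 112 in Lipase Inh. + SR-3420. The groups with a stimulus did not overlap their controls, and ISO gave the lower level in both arms. ISO lowered Klf13 by 2.28-fold (log2 −1.19 ± 0.07, adjusted p = 3.37e-12) and with inhibitors by 3.01-fold (log2 −1.59 ± 0.07, adjusted p = 2.04e-14), an interaction of −0.40 ± 0.09 (adjusted p = 0.00252). SR-3420 lowered it by 1.57-fold (log2 −0.65 ± 0.06, adjusted p = 4.21e-08) and with inhibitors by 1.31-fold (log2 −0.39 ± 0.07, adjusted p = 0.000817, and −0.42 without the small library), an interaction of 0.26 ± 0.09 (adjusted p = 0.0434). This interaction missed the adjusted p with no filter on low counts (0.114), with scaling by total counts (0.0569) and in 10 of the 18 leave-one-out fits (0.0519 to 0.0923). Those samples were replicates 1 and 2 of Vehicle, 1 and 3 of SR-3420, all 3 of Lipase Inh. + Vehicle, 1 of Lipase Inh. + ISO, and 1 and 2 of Lipase Inh. + SR-3420, the last being the small library (0.23, adjusted p = 0.0923). The span of Klf13 overlaps E030018B13Rik on the other strand by 3683 bases, but that gene had 0 to 9 counts per sample against 458 to 2654 for Klf13.

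Klf9, the most abundant member, fell with ISO when the lipases were inhibited and did not pass the adjusted p against its controls in the other stimulated groups (mm9 chr19:23215716-23241401). Its CPM was 258, 278 and 268 in Vehicle, 297, 298 and 290 in ISO, and 250, 229 and 254 in SR-3420. With inhibitors it was 260, 222 and 302 in Lipase Inh. + Vehicle, 142, 133 and 139 in Lipase Inh. + ISO, and 283, 283 and 296 in Lipase Inh. + SR-3420. The Lipase Inh. + ISO samples lay below all others, while the other 5 groups spread from 222 to 302 CPM. ISO and SR-3420 gave log2 fold changes of 0.14 ± 0.08 (adjusted p = 0.149) and −0.13 ± 0.08 (adjusted p = 0.169), and with inhibitors ISO lowered Klf9 by 1.89-fold (log2 −0.92 ± 0.08, adjusted p = 2.48e-09). The ISO interaction was −1.06 ± 0.11 (adjusted p = 2.29e-07), which became −0.94 without Lipase Inh. + Vehicle replicate 3. With scaling by total counts the SR-3420 change passed the adjusted p (−0.29, adjusted p = 0.0136).

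Klf10, the TGF-β-inducible relative of Klf11, was called in none of the 11 comparisons, but rose with SR-3420 and with ISO in the presence of inhibitors (mm9 chr15:38221219-38230466). Its CPM was 44.0 to 46.8 in Vehicle, 50.3 to 55.6 in ISO and 68 to 74.9 in SR-3420, and with inhibitors 44.7 to 50.04 in Lipase Inh. + Vehicle, 63.6 to 78.2 in Lipase Inh. + ISO and 47.4 to 52.9 in Lipase Inh. + SR-3420. These groups were the reverse of those of Klf11 under ISO, since the level with inhibitors was the higher. The log2 fold change was 0.69 ± 0.08 for SR-3420 (adjusted p = 5.50e-07) and 0.60 ± 0.08 for ISO with inhibitors (adjusted p = 2.19e-06). For ISO alone it was 0.24 ± 0.08 (adjusted p = 0.0209), which turned to −0.07 (adjusted p = 0.589) with scaling by total counts and missed the adjusted p without Vehicle replicate 1 (0.0599) or 2 (0.0545) or ISO replicate 1 (0.0876) or 2 (0.051). The ISO interaction of 0.36 ± 0.12 (adjusted p = 0.0245) missed it without ISO replicate 3 (0.0579), Lipase Inh. + Vehicle replicate 2 (0.0605) or Lipase Inh. + ISO replicate 1 (0.0689) or 2 (0.0659). The SR-3420 interaction was −0.64 ± 0.12 (adjusted p = 0.000392, and −0.62 without the small library).

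**Figure D4:**
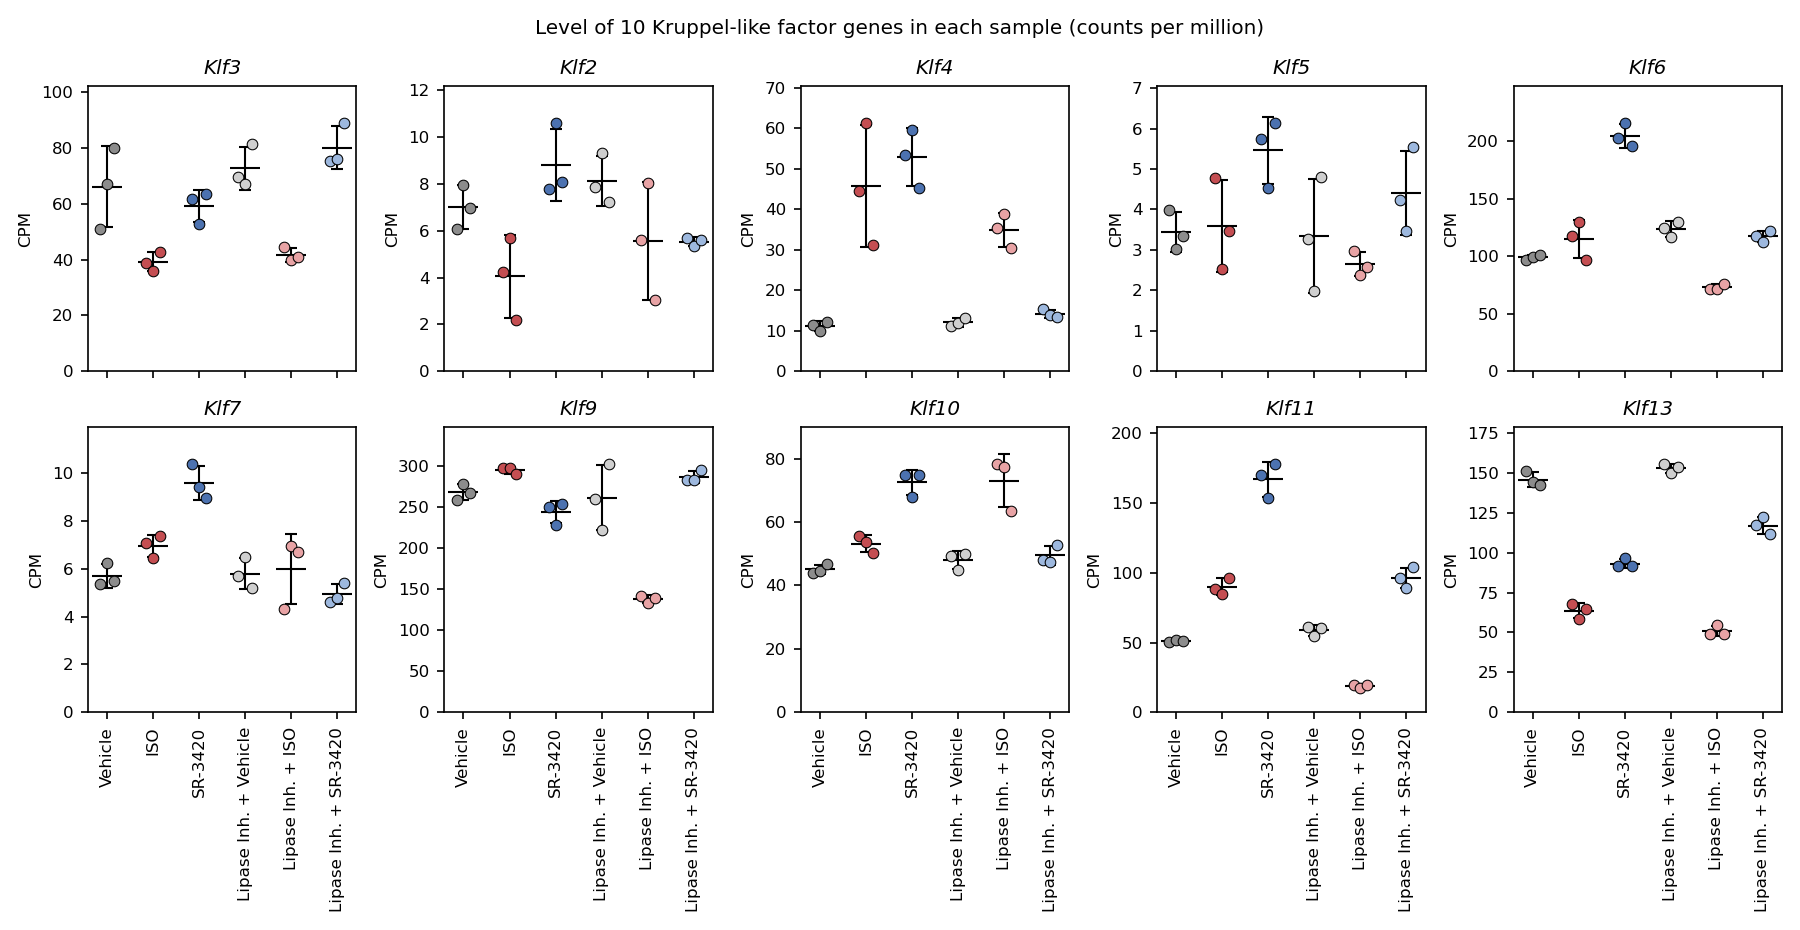
Level (CPM, axis from 0) of each of the 10 genes in the 18 samples, with 3 points per group and bars for the mean ± SD. Klf11 is lowest in Lipase Inh. + ISO at 17.3 to 19.5 CPM and highest in SR-3420, and Klf13 is below its controls in all 4 stimulated groups.

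Whether the response differed when the lipase inhibitors were present was tested by the interaction, the change with inhibitors minus the change without. For ISO, Klf9 and Klf11 were called lower and no member higher (4.71% and 2.18% of all genes). By adjusted p alone Klf6 and Klf13 were also lower and Klf10 higher, which makes 4 lower and 1 higher against 16.6% and 14.9% of all genes. The median of the 10 members was −0.42 and that of all genes 0.01. For SR-3420, Klf4 and Klf6 were called lower and no member higher (2.42% and 1.4% of all genes). By adjusted p alone Klf7, Klf10 and Klf11 were also lower and Klf13 higher, which makes 5 lower and 1 higher against 14.8% and 12.5% of all genes. The median of the 10 members was −0.75 and that of all genes 0.01. Without the small library Klf4 and Klf6 were still called, 5 members were lower and 0 higher by edgeR's adjusted p, and the median of the members was −0.73. The ISO and SR-3420 interactions share the Vehicle and Lipase Inh. + Vehicle samples.

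**Figure D5:**
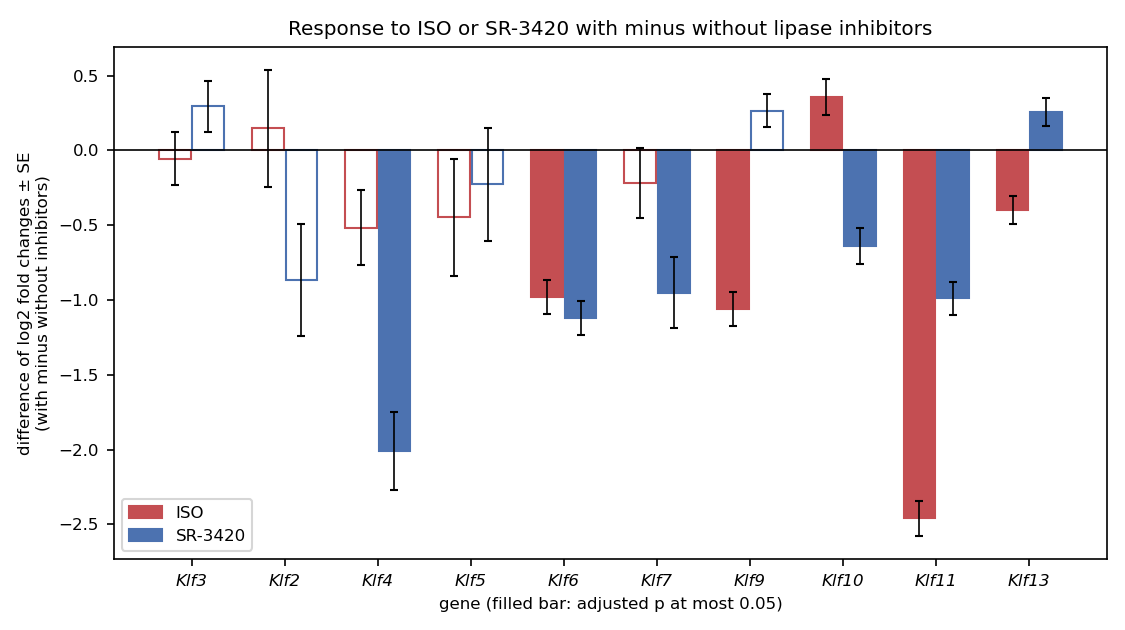
Difference of log2 fold changes (with minus without lipase inhibitors, ± SE) for the ISO response (red) and the SR-3420 response (blue) of the 10 genes, with filled bars where the adjusted p was at most 0.05. Klf11 has the largest ISO bar at −2.46 and Klf4 the largest SR-3420 bar at −2.01, and Klf10 has bars of opposite sign.

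Within the inhibitor arm, the comparison of the ISO with the SR-3420 samples called 4 members, with Klf4 higher and Klf9, Klf11 and Klf13 lower in Lipase Inh. + ISO (5.34% and 7.85% of all genes). Klf11 was 5.15-fold lower (log2 −2.37 ± 0.09, adjusted p = 1.89e-15, and −2.41 without the small library), Klf13 2.29-fold lower (−1.20 ± 0.07, and −1.17 without that library) and Klf9 2.08-fold lower (−1.06 ± 0.08, and −1.06 without it). Klf4 was 2.45-fold higher (1.29 ± 0.18, and 1.29 without it). Comparing the same stimulus with and without inhibitors, Klf9 and Klf11 were 2.14-fold and 4.78-fold lower in Lipase Inh. + ISO than in ISO (4.29% of all genes lower and 2.44% higher), and Klf4 was 3.71-fold lower in Lipase Inh. + SR-3420 than in SR-3420 (log2 −1.89, and −1.89 without the small library, with 2.57% of all genes lower and 1.55% higher).

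The patterns of the 6 called genes over the 18 samples were matched with those of all other genes by the Pearson correlation of log2 CPM, which is given as a description since the samples share groups. The most similar genes were Dlc1 (r = 0.994), Ddit3 (0.988) and Chac1 (0.987) for Klf11, Nfic (0.983), Ampd2 (0.981) and Jup (0.978) for Klf13, and Ddx21 (0.981), Ppil4 (0.981) and Ccdc86 (0.980) for Klf4. They were Ets2 (0.949), Txnip (0.946) and Mcl1 (0.940) for Klf6, Fgfr2 (0.948), Zmym6 (0.942) and Ttc28 (0.942) for Klf9, and Brd2 (0.835), Cabin1 (0.835) and Rhob (0.816) for Klf2. Ddit3 and Chac1 are known genes of the integrated stress response. Among the 10 members the closest pairs were Klf6 with Klf11 (r = 0.891) and Klf3 with Klf13 (0.821), and the most opposed pair was Klf4 with Klf13 (−0.780).

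Of 16 further genes of the SP and KLF family, 9 passed the filter, and Klf15, Klf8 and Sp6 were called in at least 1 comparison. As for the members, the share of all genes called in at least 1 comparison was not counted. Klf15, a glucocorticoid-induced factor of mature adipocytes, fell from 217 ± 10.5 CPM in Vehicle to 97.3 ± 20.1 in ISO and 87.2 ± 10.8 in SR-3420 (SD, n = 3), that is by 2.24-fold (adjusted p = 1.01e-08) and 2.48-fold (adjusted p = 2.32e-09). In the inhibitor arm it was 215 ± 14.6 in Lipase Inh. + Vehicle, 127 ± 6.32 in Lipase Inh. + ISO and 234 ± 11.1 in Lipase Inh. + SR-3420, with an SR-3420 interaction of 1.43 ± 0.15 (adjusted p = 5.12e-07, and 1.46 without the small library). Per kilobase Klf15 stood at 94.6 ± 4.57 RPKM in Vehicle, above Klf9 at 82.1 ± 3.03 RPKM. Klf15 and Klf13 both fell with either stimulus, but with inhibitors Klf15 showed no fall past the adjusted p under SR-3420 (0.634), where Klf13 did. Klf8 rose with SR-3420 by 2.81-fold (adjusted p = 0.00607) from 7 to 8 counts per Vehicle sample. Sp6, named after its values were seen, had 0 to 2 counts per ISO sample against 5 to 12 in SR-3420 (adjusted p = 0.0441) and 6 to 10 in Lipase Inh. + ISO (adjusted p = 0.0129).

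Genes around the family were described by lists. Of all genes tested, 5.03% were called higher and 4.07% lower with ISO, and 3.97% and 2.37% with SR-3420. By adjusted p alone 26.8% rose and 25% fell with ISO, and 26% and 25.4% with SR-3420. Of 14 KLF cofactors and regulators, 13 were tested, and only Egr1, a zinc finger factor that reads related GC-rich letters, was called with ISO (3.52-fold, adjusted p = 8.54e-09) or SR-3420 (25.8-fold, adjusted p = 1.55e-14). Of the kinase and MEF2 genes upstream of Klf2 and Klf4, 4 of 5 were tested and 0 were called with either stimulus, with 1 higher and 1 lower by edgeR's adjusted p under ISO and 2 higher under SR-3420. Of 7 glucocorticoid receptor genes and targets, Dusp1 was called with ISO (7.04-fold) and with SR-3420 (12-fold), and Sgk1 with SR-3420 (2.04-fold). By edgeR's adjusted p alone 4 of the 7 rose and 1 fell with ISO, and 5 rose and 1 fell with SR-3420. Of 10 genes reported as KLF targets, in adipocytes or, as for Thbd and S1pr1, in endothelial cells, 4 were called higher under ISO and 2 under SR-3420, against 5.03% and 3.97% of all genes, with the largest changes for Ppargc1a (14.3-fold with ISO), the coactivator of thermogenic genes, Thbd (3.53-fold with ISO) and Cebpb (2.77-fold with SR-3420). The median log2 fold changes of this list were 0.49 and 0.44.

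Of 14 immediate early genes, a class to which Klf4, Klf6 and Klf10 are often counted, 11 were called higher with ISO (5.03% of all genes) and 12 with SR-3420 (3.97%), with medians of 1.72 and 2.93 on the log2 scale. The interaction was called lower for 8 of them with ISO and for 12 with SR-3420 (4.71% and 2.42% of all genes), with medians of −1.19 and −2.98. Without the small library it was called lower for 11 with SR-3420, with a median of −2.89. Atf3 rose from 14.04 ± 1.69 CPM in Vehicle to 452 ± 130 in ISO and 560 ± 70.0 in SR-3420, and Nr4a1 from 13.9 ± 0.554 to 414 ± 65.5 and 115 ± 6.36 CPM. Nr4a3 was at 0 to 5 counts per Vehicle sample and reached 119 ± 5.68 CPM in ISO, 116 ± 14.9 CPM in Lipase Inh. + ISO and 1.23 ± 0.678 CPM in SR-3420. Klf4 rose by less than Atf3 and Nr4a1 with ISO, and its values with inhibitors were 34.9 ± 4.13 CPM with ISO and 14.2 ± 1.04 CPM with SR-3420.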

How the data were processed

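RNA-seq libraries (TruSeq) were aligned by the authors to mm9 with STAR 2.4.2a, collapsed with HOMER and summarised over RefSeq genes by iRNA-seq. The deposited counts are whole numbers, neither normalised nor filtered, for 20295 genes in 18 samples, and 0 columns belonged to other samples. The other deposited columns used are gene position and counted length. Whether the counting used strand is not given in the sources used here. The p-values rest on a spread per gene estimated within groups over all 18 samples, 3 per group, of a single line. Totals were 4263755 to 21205032 counts per sample. Counts were tested in R 4.3.3 with edgeR 4.0.16 (filterByExpr, minimum count 10, TMM factors, 1 quasi-likelihood fit with a mean per group over all 18 samples), with Benjamini-Hochberg adjustment over 12156 genes. Genes were called at an adjusted p up to 0.05 and a log2 fold change of 1 or more in size. The standard error was the log2 fold change over the square root of F. CPM and RPKM used TMM-scaled libraries, and correlations used a prior count of 2.

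The members, all gene lists and the tests were chosen with earlier results of these data known. Values in all samples were given for members called in at least 1 comparison and ranges for the others. From each list up to 3 genes with the largest change among those called with ISO or SR-3420 were named, and 3 similar genes per called member. Samples were grouped by their titles. The edgeR test of ISO against Vehicle was tried on simulated counts, and the other comparisons and steps were not. Alternatives were RLE or no scaling factors, other count filters, DESeq2 1.42.0, a replicate block, fits to the groups compared, leaving out each sample or Lars2, and calls by adjusted p alone. Protein sequences were not analysed here. Positions are mm9, and promoters GRCm38.p6.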

Additional observations from a re-analysis of the deposited data

Results flagged for a closer look

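Responses that differed between cells with and without lipase inhibitors, by the test of the interaction itself (edgeR, adjusted p of at most 0.05), were found for 5 of the 10 genes with ISO and 6 with SR-3420. Of all genes tested, 14.9% were higher and 16.6% lower in this way for ISO, and 12.5% and 14.8% for SR-3420. For ISO the differences of log2 fold changes were −0.98 (Klf6), −1.06 (Klf9), 0.36 (Klf10), −2.46 (Klf11) and −0.40 (Klf13). For SR-3420 they were −2.01 (Klf4), −1.12 (Klf6), −0.95 (Klf7), −0.64 (Klf10), −0.99 (Klf11) and 0.26 (Klf13). All 3 samples of Klf11 lay above the Vehicle samples with ISO and below the Lipase Inh. + Vehicle samples with ISO and inhibitors. The interactions of Klf10 had opposite signs for ISO and SR-3420, and the difference between these interactions was not tested. The ISO interaction of Klf10 missed the adjusted p in 4 of the 18 leave-one-out fits (0.0579 to 0.0689), and the SR-3420 interaction of Klf13 in 10 of 18 (0.0519 to 0.0923). Groups of 3 samples are too small for a test of single outlying samples.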

How the results depend on the processing

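Of 110 member changes, all kept their result with RLE factors, with a filter of 1 CPM in 3 samples and without Lars2. Scaling by total counts moved the median gene by −0.31 (ISO), −0.16 (SR-3420), −0.23 (ISO with inhibitors), −0.15 (ISO against SR-3420) and −0.13 (the same with inhibitors) on the log2 scale. It reversed Klf6 (−0.0884) and Klf10 (−0.0662) under ISO, and changed the members called lower to 3 (ISO against Vehicle), 4 (Lipase Inh. + ISO against Lipase Inh. + Vehicle), 2 (ISO against SR-3420) and 1 (ISO interaction). All genes called higher and lower became 339 and 1191 in place of 612 and 495 for ISO (22.2% against 55.3% higher), 335 and 501 in place of 482 and 288 for SR-3420 (40.1% against 62.6%), 439 and 1436 in place of 660 and 928 for ISO with inhibitors (23.4% against 41.6%), 16 and 11 in place of 26 and 10 for SR-3420 with inhibitors, 108 and 178 in place of 149 and 99 for ISO against SR-3420, 500 and 1241 in place of 649 and 954 for the same with inhibitors, 351 and 492 in place of 265 and 573 for the ISO interaction, and 225 and 238 in place of 170 and 294 for the SR-3420 interaction. Genes called higher by SR-3420 with inhibitors numbered 48 with no filter and 40 with the block, and by the inhibitors alone 2 with the block, 0 with DESeq2, total counts or the groups compared, and 1 in the main test.

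By adjusted p alone the members higher and lower were 4 and 3 (ISO), 6 and 1 (SR-3420), 2 and 5 (ISO with inhibitors), 1 and 1 (SR-3420 with inhibitors), 1 and 7 (ISO against SR-3420), 2 and 6 (the same with inhibitors), 1 and 4 (ISO interaction), 1 and 5 (SR-3420 interaction), 1 and 5 (Lipase Inh. + ISO against ISO), and 3 and 5 (Lipase Inh. + SR-3420 against SR-3420). Of all 12156 genes, 3258 and 3042 (ISO), 3165 and 3089 (SR-3420), 3574 and 3440 (ISO with inhibitors) and 363 and 165 (SR-3420 with inhibitors) were higher and lower. Those numbers were 1916 and 1693 for ISO against SR-3420, and 3480 and 3439 with inhibitors. For the interactions they were 1807 and 2016 (ISO) and 1524 and 1797 (SR-3420). With against without inhibitors they were 2554 and 2625 (ISO) and 2300 and 2539 (SR-3420). Leaving out 1 sample at a time gave members called lower of 0 to 1 (ISO against SR-3420), 1 to 2 (ISO against Vehicle), 1 to 3 (ISO interaction), 3 to 4 (Lipase Inh. + ISO against Lipase Inh. + SR-3420), 2 to 3 (Lipase Inh. + ISO against Lipase Inh. + Vehicle), 1 to 2 (Lipase Inh. + SR-3420 against SR-3420) and 2 to 4 (SR-3420 interaction), while members called higher kept their counts. The count of 4 for the SR-3420 interaction arose without Vehicle replicate 2 or Lipase Inh. + SR-3420 replicate 3, where Klf7 (−1.03 and −1.05) and Klf11 (−1.0001 and −1.05) passed the fold threshold. Klf4 in Lipase Inh. + ISO against ISO (−0.40, adjusted p = 0.0485) missed the adjusted p in 12 of the 18 leave-one-out fits, with DESeq2 (0.0641), total counts (0.0941) and the groups compared alone (0.100).

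With the replicate number as a block 0 member results were lost and 6 passed the adjusted p in addition, among them Klf6 with inhibitors alone (0.0230), Klf2 with ISO and inhibitors (0.00779) and Klf9 in the SR-3420 interaction (0.0378). Same-numbered samples deviated together for numbers 2 and 3 (mean r = 0.150 and 0.190, lowest 0.0745 and 0.114) but not for number 1 (mean r = −0.0118). Of 18 samples, 12 were closest to their own number among the 3. No label states that a number marks 1 experiment, so the main test did not pair the samples. Pairing by number is not excluded by these values. Motif counts in the bases before the start alone stayed close to those of the full window, with the CRE core in 4 of 8. Low counts limit Klf2, Klf5 and Klf7, whose smallest counts were 20, 13 and 18.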

Other observations

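Zbtb16, a zinc finger factor induced by glucocorticoids, fell with ISO in the presence of inhibitors (log2 −1.66 ± 0.15, adjusted p = 3.05e-09) and had an ISO interaction of −2.60 ± 0.20 (adjusted p = 1.67e-09). Of the 7 genes of the glucocorticoid list, 4 were lower and 0 higher in the ISO interaction by edgeR's adjusted p, and 3 did not pass. Of all genes tested, 16.6% were lower and 14.9% higher. Among the SP genes, Sp3 had an ISO interaction of −0.94 ± 0.14 (adjusted p = 2.70e-05), and Sp4 fell with ISO without and with inhibitors (−0.78 ± 0.11 and −0.86 ± 0.11) with an interaction of −0.08 ± 0.16 (adjusted p = 0.732). These genes were chosen after their values were seen.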
